A study of Mus musculus with 13 samples.

Results

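The nuclear genes of the mitochondrial ribosomal proteins were examined in Th17 cells with and without a conditional knockout of Chaf1b. They were taken as all rows of the deposited count table whose Ensembl identifier maps to a symbol starting with Mrpl or Mrps and a digit, without pseudogenes, and with at least 1 count in every library. Of 56941 rows, 83 fitted the symbol pattern, 5 of these were pseudogenes, and the remaining 78 genes all met the count condition. All 78 also passed the filter on low counts used for testing, so no gene was lost between the choice and the test. The rule used no measured difference between the genotypes.

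Cells of the Th17 class are helper T cells named for IL-17A, which they release together with IL-17F. Mouse spleen was the source of the naive CD4 T cells, which were activated and kept for 72 hours in a culture that polarizes them to this fate, and RNA was sequenced from 3 libraries of the knockout and 3 of the wild type. The knockout (KO) carried floxed Chaf1b alleles and a Cre recombinase driven by Il17f (Chaf1bfl/fl;Il17fCre+), and the wild type is labelled Chaf1bWT (WT). The product of Chaf1b is part of chromatin assembly factor 1, which deposits histones H3 and H4 behind the replication fork. Because Il17f drives the Cre, deletion depends on a gene that Th17 cells switch on during the culture. From the WT label only the Chaf1b genotype is known, not the presence of a Cre, and a library with Cre alone was not analysed here. The labels call the libraries biological replicates without naming animals, so p-values rest on the spread among libraries, which may be technical. The other 7 of the 13 samples of the study were not analysed here.

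Mitochondria keep their own ribosome, which makes the few membrane proteins of oxidative phosphorylation that are still encoded in mitochondrial DNA. Its RNAs come from mitochondrial DNA, whereas every one of its proteins is encoded in the nucleus, made in the cytosol and imported. The ribosome has a small subunit, which decodes the mRNA, and a large subunit, which forms the peptide bond. Some of its proteins have bacterial counterparts, and others exist only in mitochondria. Activated T cells enlarge their mitochondrial mass and need mitochondrial translation for their full output of cytokines.

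Total counts were 35708879 to 38395131 in the KO libraries and 38099488 to 45232055 in the WT libraries, and the 78 genes took 0.380% to 0.393% of them. Between 65.6% and 67.7% of the counts from 1 to 20 were even numbers, against 48.8% to 50.9% of those of 1000 or more, a pattern that arises if each read of a pair is counted, in which case there are fewer fragments than counts. Chaf1b itself showed no decrease in libraries labelled KO. Its values were 16.3, 14.9 and 13.5 CPM (counts scaled to a fixed library size after TMM adjustment) in the KO libraries, against 13.2, 11.4 and 11.5 CPM in the WT libraries (log2 fold change 0.31, SE 0.11, edgeR adjusted p = 0.130). These are sums over all exons, and the sources used here do not say which part of the gene is floxed, so this value does not check the label. The label Th17 was checked against its markers. Il17a stood at 8.60, 8.44 and 9.89 CPM in KO libraries, against 104, 52.4 and 43.1 CPM in WT libraries, so the defining cytokine was detected in every library and was lower in the KO. The 7 Th17 markers summed to 36.0 to 38.7 CPM in KO libraries and 98.0 to 230 CPM in WT libraries, with 3 of 7 past the threshold, all lower. Il22 lay the other way, at 0.456, 1.10 and 0.706 CPM in KO libraries, against 0.244, 0.313 and 0.308 CPM in WT libraries (log2 fold change 1.38, SE 0.45, adjusted p = 0.0993), and did not pass. WT replicate 1 stood apart from the other WT libraries. Its chi-square per degree of freedom was 33.1 against WT replicate 3 and 18.78 against WT replicate 2, which differed from each other by 7.54. KO libraries differed from each other by 4.19 to 4.53. Pairs of a KO and a WT library gave 17.96 to 31.46, so the spread within WT reached that between genotypes.

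Markers of other cell types also moved with genotype. The 4 gamma delta T cell markers summed to 95.4 to 101 CPM in KO libraries and 49.99 to 62.2 CPM in WT libraries, and all 4 passed the threshold upwards. Ighm, the heavy chain of the B cell receptor, rose, with 82.8, 87.5 and 84.7 CPM in KO libraries, against 46.2, 62.1 and 54.4 CPM in WT libraries (log2 fold change 0.65, SE 0.09, adjusted p = 0.00213). Its signalling partner Cd79b rose as well, with 4.90, 4.95 and 4.40 CPM in KO libraries, against 3.10, 3.23 and 2.20 CPM in WT libraries (0.74, SE 0.19, adjusted p = 0.0391), while Cd79a stayed under 1 CPM in every library and its groups overlapped. The 6 myeloid markers stayed under 8 CPM in sum in every library, at 6.27 to 7.89 CPM in KO libraries and 2.44 to 2.84 CPM in WT libraries. Most of this difference came from Fcer1g, with 3.90, 5.27 and 3.64 CPM in KO libraries, against 0.585, 0.626 and 1.10 CPM in WT libraries. Of the 4 myeloid markers tested, Cd14 alone had a negative log2 fold change (−0.61), with overlapping groups. The gamma delta and myeloid sums, like Ighm and Cd79b, were higher in every KO library than in any WT library. The 5 natural killer markers summed to 6.52 to 9.40 CPM in KO libraries and 3.26 to 5.31 CPM in WT libraries. Nearly all of this was Gzma, with 9.23, 7.34 and 6.52 CPM in KO libraries, against 5.27, 3.26 and 5.10 CPM in WT libraries. Ncr1, Klrb1c and Klra8 had 0 counts in all 6 libraries, and Klra4 had at most 6. The 5 erythroid markers summed to 1.49 to 4.94 CPM in KO libraries and 0.390 to 0.835 CPM in WT libraries. Most of this was Hbb-bt, with 1.99, 1.31 and 4.67 CPM in KO libraries, against 0.244, 0.417 and 0.615 CPM in WT libraries. Hba-a1 had 12, 6 and 0 counts in KO libraries and 0 in every WT library. Counts of Alas2 were 3, 1 and 9 in KO libraries, against 4, 4 and 6 in WT libraries. For Hbb-bs they were 0, 0 and 1, against 2, 0 and 4. For each of these 4 sums, as for the Th17 sum, the exact two-sided permutation test gave p = 0.1, the smallest that 3 against 3 libraries allow. The 5 CD4 T cell markers summed to 686 to 724 CPM in KO libraries and 714 to 858 CPM in WT libraries, and the 2 CD8 markers to 12.4 to 16.6 CPM in KO libraries and 14.1 to 16.0 CPM in WT libraries. The part of these cells in the values below was not tested. In RNA from bulk cultures, fewer cells of a type and less RNA per cell cannot be told apart.

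The promoters of the genes that the results turn on are given here. RefSeq promoter sequences on GRCm38.p6 were matched by symbol for 69 of the 78 genes, as 75 promoters. Not matched were Mrps34, Mrps35, Mrps28, Mrpl19, Mrpl4, Mrpl38, Mrpl15, Mrpl54 and Mrpl13. Mrpl35 and Mrps21 are shown because they were the only members past the threshold of the test below. Mrpl17 and Mrpl22 are shown because they alone carried both an ETS motif and an NRF1 motif, the sites classically linked to nuclear genes of mitochondrial function. Each line holds the 250 bases before the transcription start, 5′ to 3′ on the gene's strand. The spans are chr6:71823785-71824034 on the minus strand for Mrpl35, chr3:95871515-95871764 on the minus strand for Mrps21, chr7:105811088-105811337 on the minus strand for Mrpl17 and chr11:58171414-58171663 on the plus strand for Mrpl22. Capitals mark the letters of the ETS motif CCGGAAG and of the NRF1 motif GCATGCGC, each searched on both strands.
Mrpl35: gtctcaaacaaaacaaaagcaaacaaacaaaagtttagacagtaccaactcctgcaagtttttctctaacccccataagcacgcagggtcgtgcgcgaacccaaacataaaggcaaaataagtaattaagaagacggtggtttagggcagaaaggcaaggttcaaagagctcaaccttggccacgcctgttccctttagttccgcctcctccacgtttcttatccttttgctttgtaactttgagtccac
Mrps21: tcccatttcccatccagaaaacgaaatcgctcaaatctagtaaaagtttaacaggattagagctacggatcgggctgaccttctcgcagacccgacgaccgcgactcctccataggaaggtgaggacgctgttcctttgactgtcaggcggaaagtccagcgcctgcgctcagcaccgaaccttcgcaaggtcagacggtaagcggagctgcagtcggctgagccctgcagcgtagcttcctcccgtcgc
Mrpl17: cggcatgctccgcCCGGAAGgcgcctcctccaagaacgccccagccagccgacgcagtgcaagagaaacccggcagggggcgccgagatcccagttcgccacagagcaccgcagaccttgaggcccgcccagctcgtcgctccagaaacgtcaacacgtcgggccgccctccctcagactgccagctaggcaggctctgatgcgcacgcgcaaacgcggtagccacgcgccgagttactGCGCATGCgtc
Mrpl22: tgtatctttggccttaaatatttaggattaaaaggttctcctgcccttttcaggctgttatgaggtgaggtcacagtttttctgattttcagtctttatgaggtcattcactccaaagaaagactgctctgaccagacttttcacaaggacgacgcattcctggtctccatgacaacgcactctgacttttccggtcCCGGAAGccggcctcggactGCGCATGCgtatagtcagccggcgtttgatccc

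In Mrpl17 the ETS letters begin 237 bases and the NRF1 letters, on the opposite strand, 11 bases before the start. In Mrpl22 they begin 53 and 33 bases before it, close to each other. Neither motif was found in the windows of Mrpl35 and Mrps21, which says only that these letters are not in those 250 bases. Over the 75 promoters, 18 held CCGGAAG (24.0%), against 6.91% of all 32851 promoters of the table and 13.7% of the 12738 promoters of tested genes. The NRF1 letters stood in 8 (10.7%), against 2.26% of all promoters and 4.29% of those of tested genes. Both were thus more frequent here than in the promoters of tested genes. The E-box CACGTG, the site bound by Myc and Max, was in 7 (9.33%), against 6.02% of all promoters and 8.27% of those of tested genes. The CCAAT box was in 28 (37.3%), against 33.8% and 35.4% in the same sets. The E-box and the CCAAT box were close to the share in promoters of tested genes. Of the 75 promoters, 51 held neither the ETS nor the NRF1 letters. These are matches of letters and not measured binding.

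With these promoters in mind, transcript values were compared between genotypes. Mitochondrial ribosomal protein transcripts differed little: 1 of 78 was higher in KO and 1 was lower at an adjusted p under 0.05, or 2.56% in all. The same edgeR test called 6.39% of 14681 tested genes, 3.92% higher and 2.47% lower. At an unadjusted p under 0.05, 15 of the 78 (19.2%) passed, against 21.1% of all tested genes. Log2 fold changes of KO over WT ran from −0.27 to 0.26, with a median of 0.05 over the 78 genes and −0.01 over all tested genes. The 95% interval of every one of the 78 lay within 1.5-fold of no difference in both directions, and that of 45 (57.7%) within 1.2-fold. Among all tested genes these shares were 63.4% and 30.3%, but many of those have low counts. Among the 6684 tested genes in the range of mean levels of the 78, from 10.4 to 128 CPM, 94.4% had an interval within 1.5-fold. In that range 7.45% of genes were called, and 11.0% had a larger absolute log2 fold change than the largest among the 78. The median absolute log2 fold change was 0.07 for the 78 genes and 0.09 for that range.

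**Figure D1:**
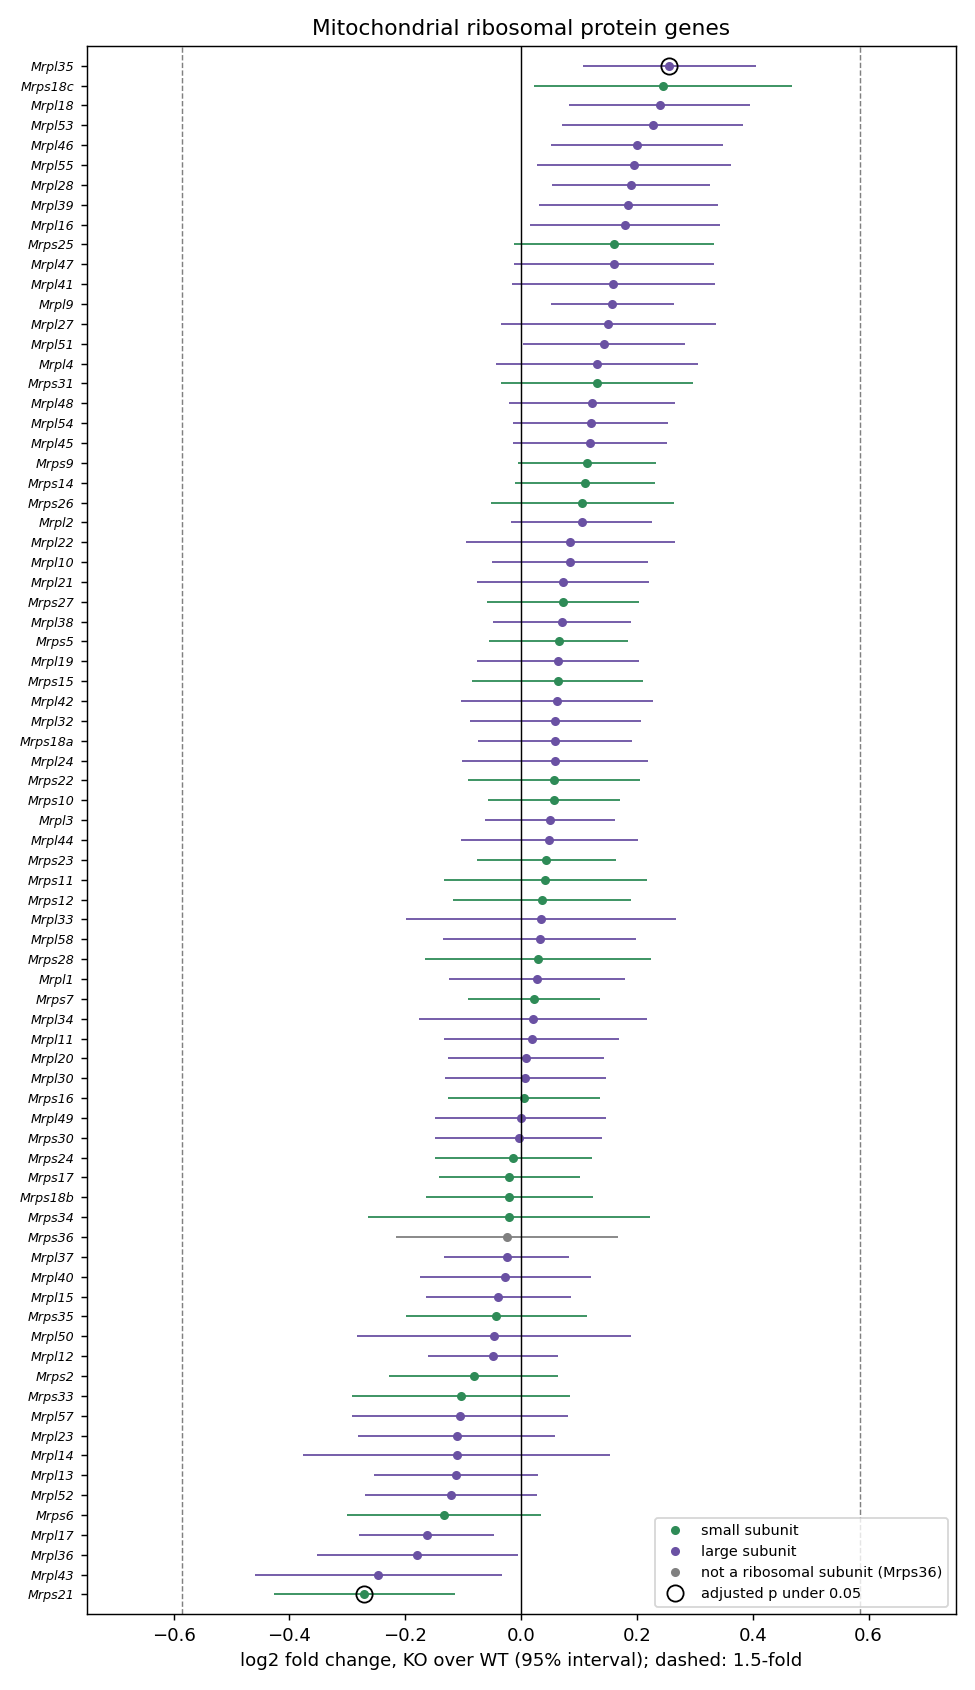
Log2 fold change of KO over WT (x axis) with its 95% interval for each of the 78 genes (rows), coloured by subunit, with dashed lines at 1.5-fold. All intervals lie between the dashed lines, and the circled genes Mrpl35 (0.26) and Mrps21 (−0.27) are those with an adjusted p under 0.05.

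Mrpl35 (ENSMUSG00000052962.4), a large-subunit protein with a bacterial counterpart, was the gene that passed upwards. It had 61.4, 56.9 and 57.2 CPM in KO libraries, against 45.5, 52.3 and 49.2 CPM in WT libraries. Every KO library lay above every WT library, and WT replicate 1 was the lowest of all. The means were 58.5 ± 2.56 CPM in KO and 49.0 ± 3.40 CPM in WT (SD, n = 3 each), a log2 fold change of 0.26 (SE 0.07) with an edgeR adjusted p of 0.0491. Over the 16 settings tried (other scalings, filters and tools, a block for replicate number, and each library left out in turn), it passed in 6, with log2 fold changes from 0.20 to 0.30 and adjusted p from 0.0126 to 0.254. Leaving out any library other than WT replicate 1 ended the call.

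Mrps21 (ENSMUSG00000054312.7), a small-subunit protein related to bacterial S21, was the gene that passed downwards. It had 25.1, 24.4 and 24.1 CPM in KO libraries, against 28.9, 30.4 and 29.5 CPM in WT libraries. The groups did not overlap, and the spread within each was narrow beside the gap. Mrpl35 and Mrps21 were picked by the test on these same libraries, so their separation adds no support. The means were 24.5 ± 0.493 CPM in KO and 29.6 ± 0.753 CPM in WT (SD, n = 3 each), a log2 fold change of −0.27 (SE 0.07) with an edgeR adjusted p of 0.0468. It passed in 10 of the 16 settings, with log2 fold changes from −0.30 to −0.25 and adjusted p from 0.00436 to 0.184, and leaving out any library other than WT replicate 1 ended this call too. Neither Mrpl35 nor Mrps21 overlaps another gene in the RefSeq table.

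The 5 genes with the next largest differences did not pass the threshold. Mrpl43, a large-subunit protein found only in mitochondria, had 11.3, 10.8 and 10.7 CPM in KO libraries, against 12.9, 13.5 and 12.6 CPM in WT libraries (log2 fold change −0.25, SE 0.10, adjusted p = 0.170). Counting was not set to use strand, and the span of Mrpl43 overlaps Twnk, the mitochondrial DNA helicase, so reads of the pair cannot be told apart where they overlap. Mrps18c, the small-subunit protein closest to bacterial S18, had 11.5, 11.4 and 11.0 CPM in KO libraries, against 9.75, 9.17 and 9.69 CPM in WT libraries (0.24, SE 0.10, adjusted p = 0.191). Mrpl18 stands in the central protuberance, the crown of the large subunit. It had 31.6, 31.2 and 29.4 CPM in KO libraries, against 25.8, 26.1 and 26.3 CPM in WT libraries (0.24, SE 0.07, adjusted p = 0.0738), and its span overlaps Tcp1. Mrpl53 had 34.8, 37.5 and 37.1 CPM in KO libraries, against 30.8, 32.8 and 30.0 CPM in WT libraries (0.23, SE 0.07, adjusted p = 0.0870), and its span overlaps Ccdc142. Mrpl46, another protein of the central protuberance, had 43.1, 44.0 and 42.2 CPM in KO libraries, against 38.3, 39.2 and 35.04 CPM in WT libraries (0.20, SE 0.07, adjusted p = 0.113). In each of these 5 the libraries of the groups were fully separate, as they were in 26.8% of all tested genes. The 5 were picked for the size of their difference, which favours separation, so it adds no support. DESeq2 called Mrpl18 as well, and limma-voom called none of the 5.

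**Figure D2:**
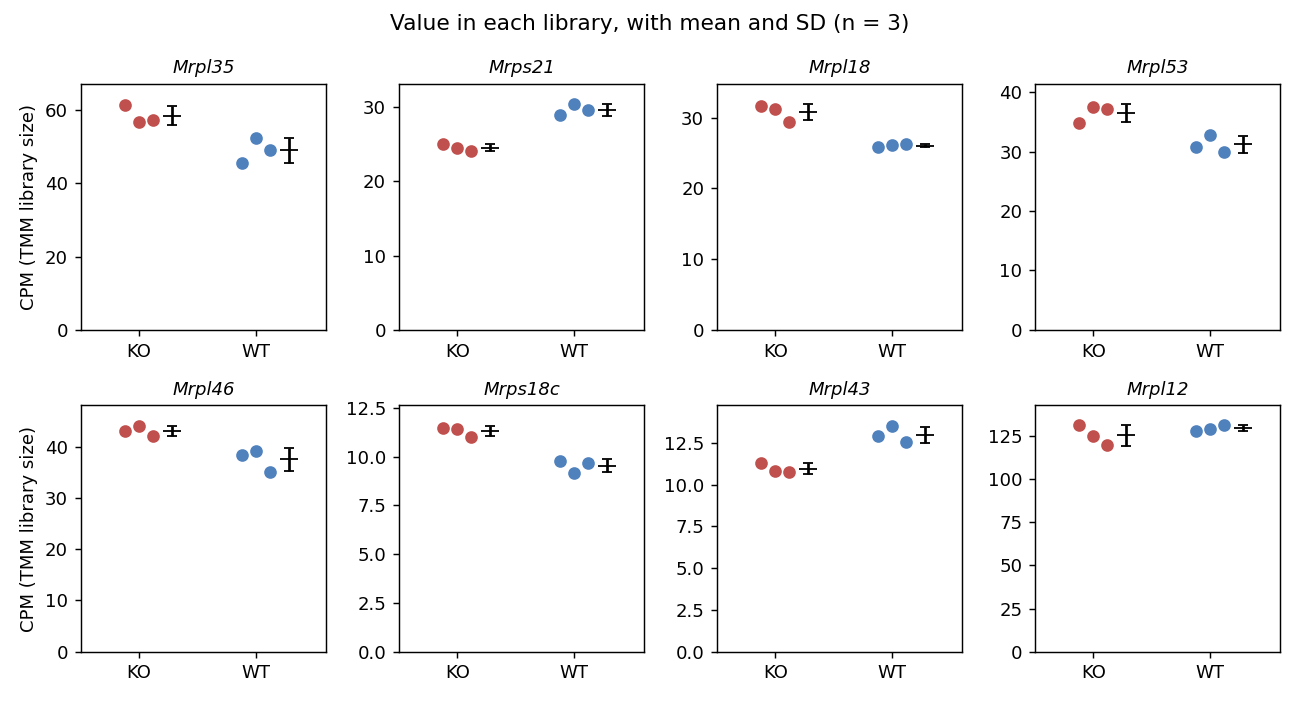
CPM on the TMM-adjusted library size (y axis, from 0) in each KO and WT library for 8 genes, with replicates 1 to 3 from left to right and the mean with SD (n = 3) beside them. Mrpl35, Mrpl18, Mrpl53, Mrpl46 and Mrps18c are higher and Mrps21 and Mrpl43 lower in all KO libraries, while the groups overlap for Mrpl12.

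Counting separation without a test gives a wider view. In 20 of the 78 genes (25.6%) all KO libraries lay above all WT libraries, and in 5 (6.41%) below; among all tested genes the shares were 14.4% above and 12.4% below. The 5 lower genes were Mrps21, Mrpl43, Mrpl36, Mrpl17 and Mrpl37, and the 20 higher ones included Mrpl9, Mrpl16, Mrpl28, Mrpl39 and Mrpl55. The counts behind this lean depended on the scaling, for the 78 and for all tested genes alike. When CPM was taken per library total with no TMM factor, 14 of the 78 were above and 9 below. The shares of all tested genes were then 11.5% and 15.8%. Without TMM factors the median log2 fold change was 0.02 for the 78 and −0.04 for all tested genes, against 0.05 and −0.01 with them. On both scales the median of the 78 thus lay above that of all tested genes. Of the 78 fold changes, 53 (67.9%) were above 0 and 25 below with TMM factors, against 48.7% of all tested genes above 0. Without TMM factors 45 were above and 33 below. On that scale the median of all tested genes was itself −0.04, so these counts do not compare with the 48.7%. KO libraries 1 and 2 most often held the highest value of a gene, in 23 and 21 genes, whereas KO library 3 held it in 6. WT libraries 1, 2 and 3 held it in 13, 5 and 10. The lean upwards therefore rested more on KO replicates 1 and 2 than on KO replicate 3.

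Small-subunit genes were flat as a group. Of the 16 with bacterial counterparts, 1 passed the threshold, Mrps21, and the median log2 fold change was 0.03. Of the 10 found only in mitochondria, none passed by edgeR, none had an unadjusted p under 0.05, and the median was 0.05; DESeq2 and limma-voom called none of these either. The 26 genes summed to 1238 ± 14.9 CPM in KO and 1215 ± 5.52 CPM in WT (SD, n = 3 each), 1.85% higher in KO. Per library total the difference was −0.204%, so its sign followed the scaling. Mrps12, the decoding-centre protein whose bacterial counterpart is the classic site of streptomycin resistance, had 49.9, 46.2 and 45.0 CPM in KO libraries, against 47.1, 42.8 and 47.8 CPM in WT libraries (0.04, SE 0.07). Its groups overlapped.

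Large-subunit genes were close to this. Of the 29 with bacterial counterparts 1 passed, Mrpl35, and the median log2 fold change was 0.06. Of the 21 found only in mitochondria none passed by edgeR, 5 had an unadjusted p under 0.05, DESeq2 and limma-voom called none of them, and the median was again 0.06. Mrpl55, placed in neither class, had a log2 fold change of 0.19 and did not pass. The 51 genes summed to 2648 ± 49.8 CPM in KO and 2564 ± 27.7 CPM in WT (SD, n = 3 each), 3.26% higher in KO. Per library total the difference was 1.17% and the libraries of the groups interleaved. The ratio of large-subunit to small-subunit counts, which no scaling touches, was 2.13, 2.17 and 2.12 in KO libraries, against 2.13, 2.09 and 2.12 in WT libraries. The balance between subunits thus overlapped between genotypes.

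**Figure D3:**
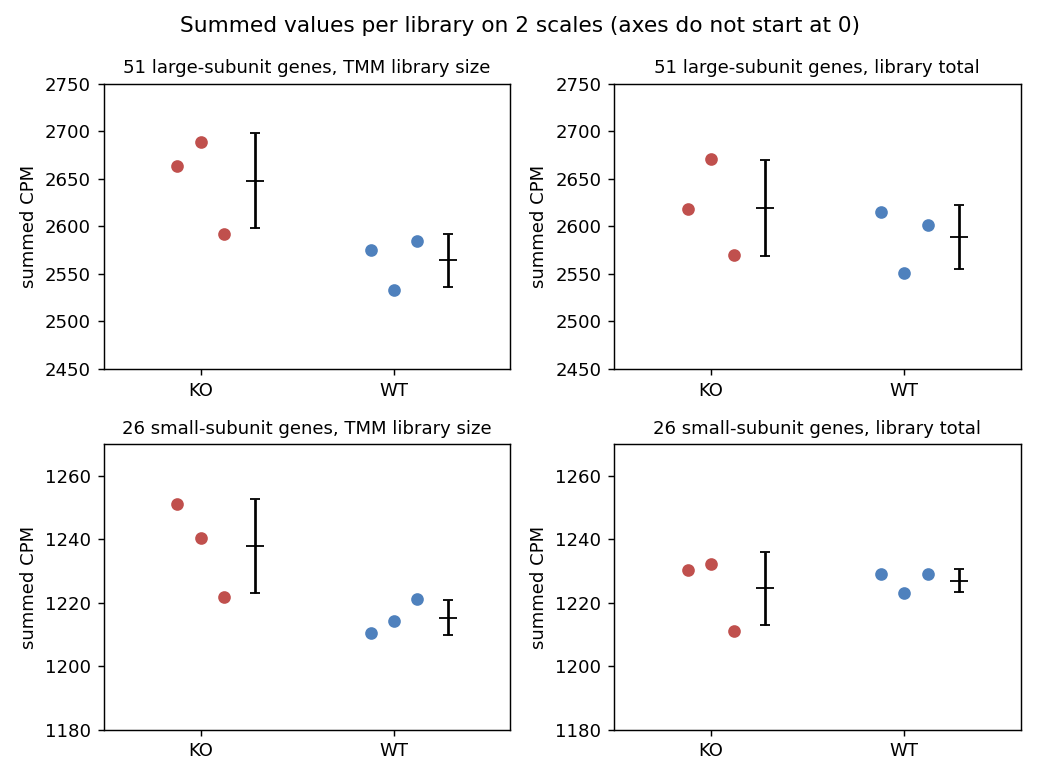
Summed CPM (y axes, not from 0) of the 51 large-subunit and the 26 small-subunit genes in each library, with replicates 1 to 3 from left to right and mean with SD (n = 3). With TMM-adjusted library sizes (left) every KO library lies above every WT library, and with library totals (right) the groups overlap. For the small subunit the separation on the left is barely present, with 1221.89 CPM in KO replicate 3 and 1221.31 CPM in WT replicate 3.

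Within the large subunit, proteins were grouped by where they sit. The stalk, which recruits translation factors, was represented by Mrpl10, Mrpl11 and Mrpl12, with a median log2 fold change of 0.02 and no gene whose groups were separate. Mrpl12, which has also been reported to bind the mitochondrial RNA polymerase, had the most counts of all 78. It had 132, 125 and 120 CPM in KO libraries, against 128, 129 and 132 CPM in WT libraries (−0.05, SE 0.05), and the groups overlapped. The polypeptide exit had 5 genes with a median of 0.09, again with overlapping groups throughout. Mrpl45, which anchors the exit to the inner membrane, had 83.6, 85.5 and 89.5 CPM in KO libraries, against 85.0, 75.2 and 78.0 CPM in WT libraries (0.12, SE 0.06, adjusted p = 0.296). KO values were higher apart from WT replicate 1, which lay among them. The central protuberance had 7 genes, none past the threshold, 2 with an unadjusted p under 0.05 (Mrpl18 and Mrpl46), 1 called by DESeq2 (Mrpl18), and a median of 0.12. In 4 of the 7 the groups were separate, all higher in KO, against 14.4% of all tested genes; per library total 3 were, against 11.5%. Their sum was 301 ± 4.79 CPM in KO and 281 ± 8.54 CPM in WT (SD, n = 3 each), 7.12% higher in KO and 4.96% higher per library total. The gap in this sum was larger than the SD of either group.

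The other genes with the most and the fewest counts did not pass. Mrpl9 had 105, 106 and 104 CPM in KO libraries, against 93.6, 95.8 and 93.3 CPM in WT libraries (0.16, SE 0.05, adjusted p = 0.0799), with the groups separate. Mrpl3, which lies near the catalytic core, had 96.4, 96.0 and 95.5 CPM in KO libraries, against 89.0, 95.6 and 93.4 CPM in WT libraries (0.05, SE 0.05). Mrpl15 had 91.0, 94.7 and 88.2 CPM in KO libraries, against 91.8, 90.3 and 99.3 CPM in WT libraries (−0.04, SE 0.06). At the low end, Mrpl14 had 15.7, 14.3 and 14.4 CPM in KO libraries, against 18.8, 13.6 and 15.6 CPM in WT libraries (−0.11, SE 0.12). Of these 4 genes the groups overlapped in all but Mrpl9. CPM was not divided by transcript length, so this order is one of counts and not of transcript levels.

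Several genes with the same prefix have distinct roles. Mrpl58 is the peptidyl-tRNA hydrolase that frees stalled mitochondrial ribosomes and was built into the large subunit, and it had 32.3, 31.9 and 30.0 CPM in KO libraries, against 31.8, 28.4 and 31.8 CPM in WT libraries (0.03, SE 0.08). Mrps18a, Mrps18b and Mrps18c are paralogues, and the first of them sits in the large subunit despite its name. Mrps18a had 51.3, 49.5 and 50.6 CPM in KO libraries, against 47.0, 47.6 and 50.8 CPM in WT libraries (0.06, SE 0.06). Mrps18b had 52.5, 53.4 and 52.1 CPM in KO libraries, against 57.1, 53.6 and 49.6 CPM in WT libraries (−0.02, SE 0.07). The groups thus overlapped for Mrps18a and Mrps18b and were separate for Mrps18c, the paralogue with the fewest counts. Mrps30, also a large-subunit protein despite its name, had 46.7, 46.6 and 44.8 CPM in KO libraries, against 43.1, 47.4 and 48.0 CPM in WT libraries (0.00, SE 0.07). Mrps36, now known as a component of the oxoglutarate dehydrogenase complex and not of the ribosome, had 24.6, 25.01 and 23.4 CPM in KO libraries, against 26.7, 22.3 and 25.2 CPM in WT libraries (−0.02, SE 0.09). The groups overlapped for both. Of the 5 pseudogenes left out, Mrpl48-ps had 40 to 103 counts per library, Mrpl23-ps1 14 to 26, and the 3 copies of Mrps36 at most 9.

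Many of these genes share a start region with a neighbour read in the opposite direction. Within 1000 bases, 26 of the 69 genes with a promoter in the table (37.7%) had such a neighbour, against 20.3% of 9965 tested genes. Mrpl46 and Mrps11 were the only such pair in which both belong to the 78 genes, with starts 42 bases apart. Their log2 fold changes were 0.20 for Mrpl46 and 0.04 for Mrps11 (SE 0.08). Mrpl18 starts 238 bases from Tcp1, a subunit of the cytosolic chaperonin. Tcp1 rose, with 604, 588 and 589 CPM in KO libraries, against 515, 530 and 535 CPM in WT libraries (0.17, SE 0.04, adjusted p = 0.0281). The sign was the same for Mrpl43 (−0.25) and Twnk (−0.20, adjusted p = 0.142), 116 bases apart, but both of these pairs overlap and may share reads. Mrpl47 and Ndufb5, a complex I subunit, both stood at 0.16. Mrpl41 went the other way from Pnpla7, a lysophospholipase: Mrpl41 stood at 0.16, while Pnpla7 fell by 0.50 on the log2 scale (adjusted p = 0.0192), with 11.7, 12.4 and 14.3 CPM in KO libraries, against 19.5, 18.0 and 16.8 CPM in WT libraries. Mrpl40 (−0.03) and Hira (−0.13), a histone chaperone that acts apart from replication, did not pass. Signs also differed in many pairs not described above. Examples are Mrpl55 (0.19) with 2610507I01Rik (−0.55), Mrpl2 (0.10) with Klc4 (−0.20) and Mrps5 (0.06) with Zfp661 (−0.18), none of which passed. The pairs named were picked, and whether neighbours moved together was not tested. Altogether 25 of the 78 overlap another annotated gene, and their counts are uncertain to that extent. Genes whose promoter held the ETS letters had a median log2 fold change of 0.07 (18 genes), and those without it 0.04 (51 genes).

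The partners of the ribosome were described the same way, as lists typed from known roles. The 5 ribosomal proteins under other symbols had a median log2 fold change of 0.03 and none passed by edgeR. The nearest was Dap3, a GTP-binding small-subunit protein also known as a death-associated protein, with 66.8, 64.0 and 63.6 CPM in KO libraries, against 77.9, 73.5 and 73.1 CPM in WT libraries (−0.21, SE 0.06, adjusted p = 0.0510). Its groups did not overlap, and of the 5 it was the one DESeq2 called (adjusted p = 0.0237), while limma-voom called none. DESeq2 and limma-voom called no gene in the lists of assembly, translation, tRNA synthetases, mitochondrial DNA, mitochondrial transcripts and import that follow. Ptcd3 stood at 0.03 and Aurkaip1 at 0.01, with overlapping groups. Of 26 assembly and rRNA maturation genes none passed by edgeR and 1 had an unadjusted p under 0.05, with a median of 0.05. The 3 with the most counts were the RNA granule proteins Tbrg4 (−0.05) and Dhx30 (0.01) and the GTPase Noa1 (−0.14), all with overlapping groups.

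Translation factors showed no call either. Of 14 tested, none passed by edgeR, 2 had an unadjusted p under 0.05, and the median was 0.07. Tufm, the elongation factor that brings aminoacyl-tRNA to the ribosome, had 144, 137 and 133 CPM in KO libraries, against 135, 123 and 116 CPM in WT libraries (0.15, SE 0.06, adjusted p = 0.202). The highest WT value lay among the KO values. Gfm1, the translocation factor, stood at 0.04 and Lrpprc, which stabilizes mitochondrial mRNA, at −0.04. Of 20 mitochondrial tRNA synthetases none passed by edgeR and 1 had an unadjusted p under 0.05, with a median of 0.01, and Lars2 (0.02), Iars2 (0.02) and Tars2 (−0.06) led in counts. Of 13 genes that replicate or express mitochondrial DNA none passed by edgeR, 2 had an unadjusted p under 0.05, and the median was −0.04. Polg, the DNA polymerase of mitochondria, had 106, 106 and 109 CPM in KO libraries, against 126, 123 and 110 CPM in WT libraries (−0.16, SE 0.06, adjusted p = 0.138), separate but by a small margin from WT replicate 3. Hsd17b10 and Elac2, which process mitochondrial tRNA precursors, stood at 0.11 and 0.07.

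**Figure D4:**
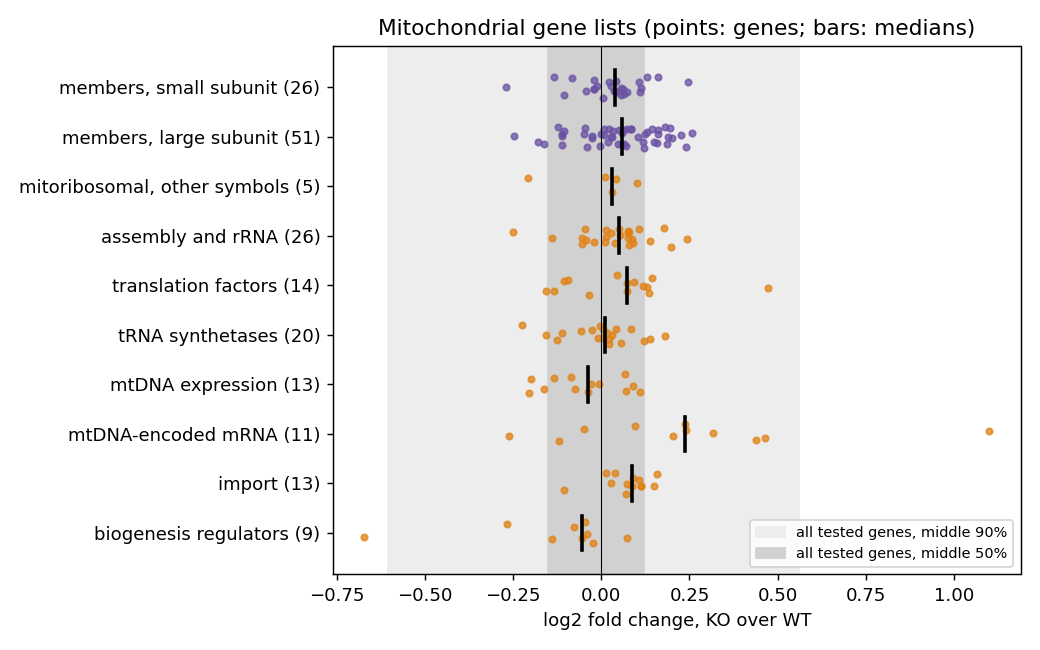
Log2 fold change of KO over WT (x axis) for the genes of each subunit and partner list (rows, number tested in parentheses; the ribosomal RNAs are not drawn), with bars at list medians and grey bands for the middle 50% and 90% of all tested genes. The medians drawn lie between −0.06 and 0.24, and the mitochondrially encoded mRNAs, some of which had few counts, spread most.

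The transcripts that this ribosome reads varied more between libraries than its protein genes did. The mitochondrially encoded mRNAs summed to 1266, 1140 and 1151 CPM in KO libraries, against 950, 1188 and 1309 CPM in WT libraries. WT libraries held both the lowest and the highest sum, WT replicate 1 being the lowest. Of 11 tested, none passed by edgeR and 3 had an unadjusted p under 0.05, with a median of 0.24. Some of the 11 had few counts per library: 41 to 87 for mt-Co2, 36 to 71 for mt-Co3, 13 to 34 for mt-Atp6 and 6 to 17 for mt-Nd3. The last of these was among the 3 and had the largest log2 fold change of the list, 1.10. The median and the spread of this list are uncertain to that extent. The largest share of the sum came from mt-Co1, a cytochrome oxidase subunit, with 591, 530 and 541 CPM in KO libraries, against 496, 627 and 683 CPM in WT libraries (−0.12, SE 0.10). The mean of mt-Co1 was thus not higher in KO. For mt-Cytb the log2 fold change was 0.10 and for mt-Nd2 0.24 (SE 0.09, adjusted p = 0.178), with overlapping groups for both. The ribosomal RNAs mt-Rnr1 and mt-Rnr2 summed to 1834, 1651 and 1661 CPM in KO libraries, against 1657, 1809 and 2039 CPM in WT libraries, and overlapped as well.

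Import genes leaned upwards without a call. None of 13 passed by edgeR, and 2 had an unadjusted p under 0.05. Their median was 0.09, and 12 of the 13 fold changes were above 0, against 48.7% of all tested genes. The import genes summed to 4309 to 4396 CPM in KO libraries and 3836 to 4303 CPM in WT libraries. Per library total the sums were 4281 to 4322 CPM in KO libraries and 3896 to 4330 CPM in WT libraries, and overlapped. Hspd1, the matrix chaperonin, had 817, 798 and 815 CPM in KO libraries, against 647, 745 and 786 CPM in WT libraries (0.16, SE 0.06, adjusted p = 0.172). The groups were separate, but WT replicate 3 came close to the KO range. Hspa9, the motor of import, stood at 0.11 and the receptor Tomm20 at 0.03, with overlapping groups.

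Among 9 tested regulators of mitochondrial biogenesis, 1 passed, and it was lower in KO. Myc, which drives growth and ribosome production in activated T cells, had 310, 310 and 330 CPM in KO libraries, against 335, 401 and 407 CPM in WT libraries. All KO values lay below all WT values, with KO replicate 3 just under WT replicate 1. The means were 317 ± 11.3 CPM in KO and 381 ± 40.0 CPM in WT (SD, n = 3 each), a log2 fold change of −0.27 (SE 0.07) with an adjusted p of 0.0466. The DESeq2 test also called Myc lower. DESeq2 size factors used within edgeR (adjusted p = 0.0510), limma-voom (0.0595) and leaving out any library but WT replicate 1 ended the call. The median of the 9 was −0.06, and 3 had an unadjusted p under 0.05, namely Myc, Ppargc1b and Max. Ppargc1b, a coactivator of mitochondrial genes, had 1.88, 2.57 and 2.34 CPM in KO libraries, against 3.80, 4.30 and 2.75 CPM in WT libraries (−0.67, SE 0.22, adjusted p = 0.1003). Max, the DNA-binding partner of Myc, had 149, 154 and 152 CPM in KO libraries, against 164, 164 and 174 CPM in WT libraries (−0.14, SE 0.05, adjusted p = 0.116). The groups were separate for both, and neither passed. Nrf1 (−0.02), Gabpa (−0.08), the ETS factor that binds CCGGAAG, and Yy1 (−0.06) did not pass and had overlapping groups.

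Cytosolic ribosomal proteins served as the comparison most like this set. Of 76 tested genes none passed by edgeR and 14 (18.4%) had an unadjusted p under 0.05, with log2 fold changes from −0.44 to 0.16 and a median of 0.00. DESeq2 and limma-voom called none of them. The groups were separate upwards in 13 (17.1%) and downwards in 7 (9.21%), against 14.4% and 12.4% of all tested genes, and per library total in 3 and 12, against 11.5% and 15.8%. No test of a difference between the cytosolic and the mitochondrial set was made.

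Across the settings tried, the calls among the 78 genes followed the calls among all genes. Other size factors in edgeR changed the share of all tested genes called little, to 6.42% with DESeq2 size factors, 6.38% with upper-quartile factors and 6.58% with library totals, and 1, 2 and 1 of the 78 passed. With no filter on low counts 6.01% of all genes and 2 of the 78 passed, and with a filter of 1 CPM in every library 7.68% and 1 of the 78. In these settings the calls were Mrpl35 and Mrps21 or Mrps21 alone. DESeq2 called 9.03% of all genes and 3 of the 78, and limma-voom 5.89% and 1 of the 78. Leaving out KO replicate 1, 2 or 3 lowered the share of all tested genes to 1.94%, 2.07% and 2.15%, and none of the 78 passed by edgeR, with 8 to 11 at an unadjusted p under 0.05. Without WT replicate 2 the share was 2.42% and again none passed by edgeR, with 10 at an unadjusted p under 0.05, and without WT replicate 3 it was 6.77% and Mrpl16 alone passed, upwards.

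The reading of the 78 genes depended most on 1 library. Without WT replicate 1, 9 genes passed upwards and 5 downwards (17.9%), while the share of all tested genes called grew alike, to 19.7%. The 9 were Mrpl4, Mrpl9, Mrpl18, Mrpl28, Mrpl35, Mrpl39, Mrpl45, Mrpl46 and Mrpl53, and the 5 were Mrps6, Mrps21, Mrpl13, Mrpl17 and Mrpl36. Down-weighting libraries by quality, which gave WT replicate 1 a weight of 0.284 and the others 0.631 to 2.28, called 11 upwards and 4 downwards, against 19.5% of all tested genes. In both of these settings the share of the 78 genes called was close to the background, and log2 fold changes stayed between −0.29 and 0.28.

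**Figure D5:**
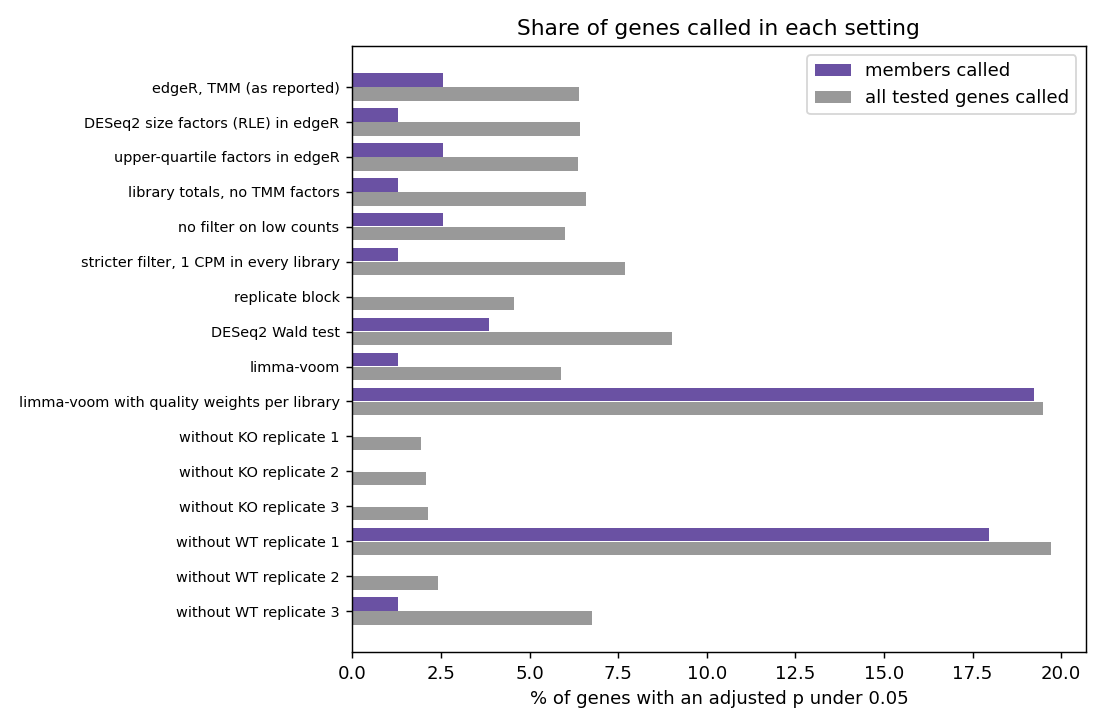
Percentage of genes with an adjusted p under 0.05 (x axis, from 0) in each of the 16 settings (rows), for the 78 genes and for all tested genes. The share of the 78 stays below that of all tested genes in every setting, and comes closest to it without WT replicate 1 (17.9% and 19.7%) and with quality weights (19.2% and 19.5%).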

How the data were processed

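Per the file headers, the authors summed reads over exons for each gene with featureCounts 2.0.1 to give the deposited counts, using the GENCODE vM33 annotation. No strand option is printed there. Aligner version and genome build: not given in the sources used here. The deposited values of WT replicate 2 are entered as other in the record of units, but are raw counts like the rest. Groups and replicate numbers come from the labels. Symbols were matched for 51948 of 56941 identifiers (91.2%). Rows with no symbol held 0.181% to 0.204% of the counts and stayed in the test.

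KO and WT libraries were compared with edgeR 4.0.16 (R 4.3.3): default filter on low counts, TMM factors (0.984 to 1.016), robust quasi-likelihood fit and F-test, Benjamini-Hochberg adjustment over 14681 genes, threshold 0.05. The biological coefficient of variation was 9.28%. Each SE is the size of the log2 fold change divided by the square root of F. The test was first tried on simulated data. Alternatives used limma 3.58.1 and DESeq2 1.42.0. No libraries were close enough to be 1 library deposited again (lowest chi-square per degree of freedom 4.19). Genes and lists were chosen with earlier results of these data known. Named are Chaf1b, all genes of the set past the threshold, the 5 next largest differences, the 4 highest and 3 lowest in counts, 9 with a distinct role, and in each partner list the called genes or the 3 with the most counts. Other genes named were chosen after their values were seen. Gene neighbours and promoters come from RefSeq GRCm38.p6, used without converting coordinates. Spans that overlap were read as uncertain. The sum of 1 marker list is not reported here.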

Additional observations from a re-analysis of the deposited data

How the results depend on the processing

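The median log2 fold change of the 78 genes was 0.049, and 0.0199 with library totals in place of TMM factors, a setting chosen after seeing the data. The median of all tested genes moved alike, from −0.00638 to −0.0358. The summed CPM of the 78 was 106 higher in KO with TMM factors and 27.0 higher per library total. With 1 gene called higher and 1 lower as reported, DESeq2 size factors, library totals, limma-voom and the stricter filter each gave 0 higher, DESeq2 gave 2 higher, and quality weights gave 11 higher and 4 lower. Leaving out 1 library gave 0 to 9 higher and 0 to 5 lower, with medians from 0.02 to 0.06. Replicate numbers did not pair the samples: deviations of same-numbered libraries correlated at −0.0398, −0.0281 and 0.000874. With the replicate block, 0 genes were called higher and 0 lower (adjusted p 0.0948 for Mrpl35 and 0.0979 for Mrps21), 13 had an unadjusted p under 0.05, and 4.57% of all tested genes were called. Over all tested genes, 938 were called as reported, 1568 with no filter on low counts, 2862 with quality weights and 295 to 2961 without 1 library, the most without WT replicate 1. No named gene changed sign past the threshold. The median half-width of the 95% interval was 0.15 for these genes. The causes of these shifts were not tested.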
